A study of Mus musculus with 15 samples.

Results

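NMDA receptors and kainate receptors are ion channels opened by glutamate, the transmitter that reaches Purkinje cells (PCs) from climbing and parallel fibers. The genes described here are the 10 subunits Grin1, Grin2a, Grin2b, Grin2c, Grin2d and Grin3a of the NMDA receptor and Grik1, Grik2, Grik3 and Grik5 of the kainate receptor. They were found by their Ensembl gene identifier, matched to the symbol in GENCODE M21, and are 10 of the 38561 genes in the count files. RNA came from PCs cut out of cerebellar sections by laser capture microdissection, in which chosen cells are excised under a microscope. The mice were of the strain given as C56/BL6, male by the methods described for them, and the labels name neither a transgene nor a treatment. They were taken at postnatal day 0 (P0), 4 (P4), 8 (P8), 14 (P14) or 21 (P21), each with 3 biological replicates, which makes 15 samples. Single somata were cut at P4, P8, P14 and P21, and clusters of PCs, not separated into single cells, at P0.

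An NMDA receptor needs the obligatory glycine-binding subunit GluN1, the product of Grin1, together with GluN2 subunits (Grin2a to Grin2d), which bind glutamate and set how fast the channel closes and how strongly magnesium blocks it, or with GluN3 subunits such as that of Grin3a, which bind glycine and lower calcium entry. Kainate receptors form from low-affinity subunits (Grik1 to Grik3) that can make channels on their own and from high-affinity subunits (Grik4 and Grik5) that need one of the former. In rodents, PCs are known for NMDA receptor currents that are present around birth, are lost during early postnatal life and return at climbing fiber synapses in the adult.

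A position at which these subunits differ is the Q/R/N site of the pore loop, which governs calcium entry and magnesium block. The 30 coding bases around this site are shown for 9 members, read from GENCODE M21 transcripts of GRCm38, 5′ to 3′ on the coding strand, with the codon of the site in capitals.
Grin1: ggcgtcctgctcAACtctggcattggggaa
Grin2a: ggcctggtcttcAACaattctgtgcccgtc
Grin2c: gcactggtcttcAACaactctgttcccatc
Grin2d: gccctggtgttcAACaactccgtgccagtg
Grin3a: gcccttctgtttGGCagaacagcagccatc
Grik1: ggagctctcatgCAGcaaggatcggagctg
Grik2: ggagctctcatgCAGcaaggttctgagctc
Grik3: ggctccctgatgCAGcaaggatctgaactg
Grik5: ggtggcttcatgCAGcagggctcggagatc
The codon is AAC, for asparagine, in Grin1 and the Grin2 genes shown, GGC, for glycine, in Grin3a, and CAG, for glutamine, in the 4 Grik genes. Over whole transcripts, not only coding bases, and on either strand, the longest run of identical bases between any pair of members was 46, between Grik2 and Grik3. Grin2b shared runs of 44 bases with Grik2 and with Grik3, and 34 with Grin2c. Within these 30 bases, 23 were identical between Grin2c and Grin2d and 10 between Grin1 and Grin2c.

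The values are whole-number counts per gene, with 3409371 to 7814951 counts on genes per sample. Between genes, levels are given as RPKM, the usual measure that scales counts to the length of annotated exons and to the sample's total on genes, and within a gene also as CPM, which puts counts on one library scale by TMM. The 6 PC markers examined, among them Calb1, Itpr1 and Pcp2, were all detected and all rose with age. Where a sample had no count of a gene, the limit is a floor of 3 counts, or 0.384 to 0.880 CPM depending on the total, which covers counting error only. The trend with age is the slope in log2 expression per postnatal day, tested over the 15 samples with edgeR's quasi-likelihood test and adjusted by Benjamini-Hochberg over the 14293 genes that passed a filter on low counts.

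All 10 members passed the filter. Grin1, Grin2c and Grik1 rose with age, Grin2b, Grin2d and Grin3a fell, and 4 members (Grin2a, Grik2, Grik3 and Grik5) did not pass the test. Thus 3 of 10 members were called in each direction, where 12.1% of all genes tested rose and 14.1% fell, or 26.2% in all. The median slope of the members was -0.04 per day, beside -0.01 for all genes tested. With the time point as a factor, which also finds courses that turn, Grin1, Grin2b, Grin2c, Grin3a and Grik1 were called, 5 of 10 members where 19.3% of all genes were. That count was 2 without P14 replicate 3, and 3 without P0 replicate 2, P14 replicate 1, P21 replicate 2 or P21 replicate 3. Without the P0 samples, the trend still called Grin1 and Grin2c as rising and Grin2b, Grin2d and Grin3a as falling, while the slope of Grik1 was 0.08 with an adjusted p of 0.0512 in edgeR's test.

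**Figure D1:**
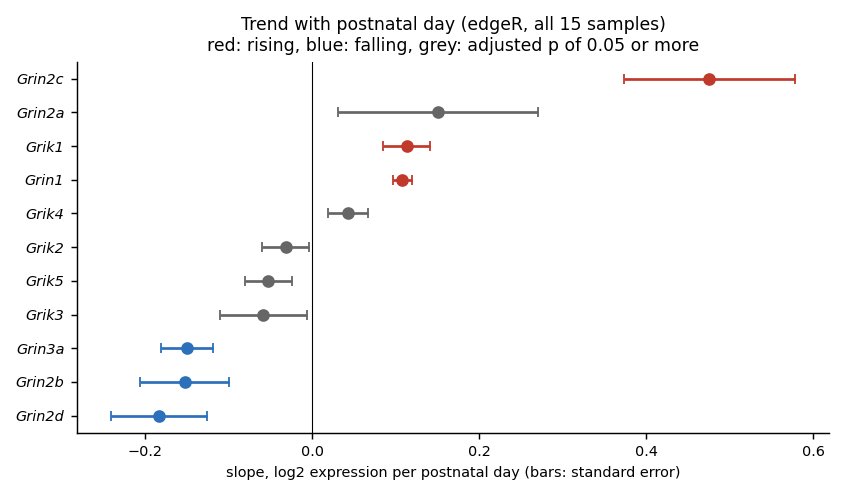
Slopes in log2 expression per postnatal day (horizontal axis) with their standard errors for the 10 members and Grik4, from edgeR over 15 samples, in red for rising, blue for falling and grey for genes not called. Grin2c has the steepest rise (0.48 per day), Grin1 the narrowest error (0.01), and Grin2d, Grin2b and Grin3a lie together between -0.18 and -0.15.

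Grin1, on chromosome 2 (chr2:25291181-25319187, minus strand, GRCm38, ENSMUSG00000026959), encodes the subunit that every NMDA receptor contains, and its RNA rose over the course. Its level was 3.48, 7.17 and 5.31 RPKM at P0, 10.2, 5.42 and 6.84 at P4, 9.21, 7.90 and 10.4 at P8, 15.02, 16.4 and 10.7 at P14 and 23.5, 19.0 and 17.7 at P21. The lowest sample of P14 and P21 (10.7) lay above the highest of P0 and P4 (10.2), a narrow gap, and all P21 samples lay above all P14 samples. The mean rose from 5.32 ± 1.85 RPKM at P0 to 20.1 ± 3.03 at P21 (SD, n = 3 each), and the slope was 0.11 ± 0.01 (SE) per day, adjusted p = 1.93e-06 by edgeR. In samples of dissected cells, more or fewer cells of a type and more or less RNA per cell cannot be told apart. The summed PC markers were 4549 to 6007 CPM at P0 and 36886 to 46641 at P21, the direction of Grin1 and the opposite of the members that fell. The part of PC content in the rising and falling values was not tested. The antisense gene Grin1os overlaps 1307 of the 9700 exon bases of Grin1, and the library kit does not mark the strand. Grin1os had 93 counts over all samples against 8514 for Grin1. These counts do not measure antisense reads within the shared bases.

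Grin2d, on chromosome 7 (chr7:45831883-45878378, minus strand, GRCm38, ENSMUSG00000002771), encodes the GluN2 subunit with the slowest closing and weak magnesium block, which is typical of young neurons, and its RNA was found mainly at P0 to P8. The level was 3.17, 2.24 and 1.29 RPKM at P0, 5.09, 2.98 and 0.837 at P4, 1.66, 1.91 and 1.07 at P8, 0.127, 0.576 and 0 at P14 and 0, 0.351 and 0.300 at P21. In counts, P0 held 99, 67 and 38, P4 129, 155 and 30, P8 52, 65 and 38, P14 5, 21 and 0 and P21 0, 13 and 14. Every P0, P4 and P8 sample lay above every P14 and P21 sample, and 1 sample at each of the late time points had no count. The mean of P0 and P4 was 11.5-fold that of P14 and P21, and the slope was -0.18 ± 0.06 (SE), with adjusted p = 0.0231 in edgeR's trend and 0.139 in its test of the factor. Within P4 the replicates ranged from 0.837 to 5.09 RPKM, a spread wider than the difference between the means of P0, P4 and P8. The antisense gene Gm45441 overlaps 643 of the 6658 exon bases of Grin2d and is absent from the count files. Its reads in these bases cannot be told apart from those of Grin2d.

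Grin2b, on chromosome 6 (chr6:135713233-136173511, minus strand, GRCm38, ENSMUSG00000030209), encodes the other GluN2 subunit of the immature brain. Its level was 0.824, 2.70 and 1.10 RPKM at P0, 1.45, 0.474 and 2.46 at P4, 2.77, 1.56 and 2.61 at P8, 0.394, 1.40 and 0.484 at P14 and 0.0945, 0.00725 and 0.230 at P21. All P8 samples (1.56 or more) lay above all P14 samples (1.40 or less), and the P21 samples were the lowest of the course. Of the P21 libraries, 2 held fewer than 10 counts of it, with 8, 1 and 40 for the 3 replicates. The level at P0 and P4 overlapped that at P14, and the mean over P0 and P4 was 3.45-fold that over P14 and P21. The slope was -0.15 ± 0.05 (SE), adjusted p = 0.0410 by edgeR, which rests on single libraries: leaving out any of 7 samples (P0 replicate 2, P4 replicate 3, P14 replicate 1 or 3, or any P21 sample) gave slopes of -0.16 to -0.12 and adjusted p-values of 0.0602 to 0.125. The call was also lost with limma-voom (slope -0.09, adjusted p = 0.229) and with log2(day + 1) in edgeR (adjusted p = 0.392).

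Grin2c, on chromosome 11 (chr11:115249169-115267243, minus strand, GRCm38, ENSMUSG00000020734), encodes the GluN2 subunit of the mature cerebellum, best known from granule neurons, and its RNA was at 0 or a few counts up to P8 and present in every sample from P14 on. Counts were 0, 0 and 0 at P0, 0, 0 and 3 at P4, 0, 7 and 0 at P8, 51, 164 and 32 at P14 and 16, 53 and 89 at P21. At P14 the level was 1.71, 5.94 and 1.14 RPKM and at P21 0.932, 1.89 and 2.52. No sample up to P8 reached the lowest sample of P14 or P21. Set against a floor of 3 counts over the P0 samples together (13582630 counts on genes), the mean RPKM was at least 66.8-fold higher at P14 and at least 40.7-fold higher at P21. Without P14 replicate 2, the highest library, the bound at P14 was at least 32.5-fold and the slope of the trend 0.41, adjusted p = 0.00188 by edgeR. The slope was 0.48 ± 0.10 (SE), adjusted p = 0.00183 by edgeR, a value that depends on how the samples at 0 are treated and is no bound on the fold. The step from P8 to P14 alone was not called by edgeR (adjusted p = 0.174).

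Grin2a, on chromosome 16 (chr16:9567898-9995560, minus strand, GRCm38, ENSMUSG00000059003), encodes the GluN2 subunit that dominates in the adult forebrain, and it was barely detected in these samples. Only 7 of the 15 samples had a count, at most 32, and no level exceeded 0.321 RPKM. The reads were 0, 0 and 11 at P4, 27, 13 and 0 at P8, 1, 19 and 0 at P14 and 2, 32 and 0 at P21, with none at P0, so replicates of 1 time point differed as much as time points did. The slope of 0.15 ± 0.12 (SE) had an adjusted p of 0.396 in edgeR's test.

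Grin3a, on chromosome 4 (chr4:49661611-49845744, minus strand, GRCm38, ENSMUSG00000039579), encodes the GluN3A subunit, which is known for a peak in early postnatal brain, and it had the highest level of all members at P0. Its level was 10.7, 22.4 and 10.6 RPKM at P0, 6.40, 4.94 and 15.8 at P4, 5.77, 3.94 and 7.21 at P8, 1.84, 2.29 and 1.29 at P14 and 3.30, 0.0880 and 1.14 at P21. Every sample of P0 and P4 lay above every sample of P14 and P21, and the P8 samples also lay above all later ones. For P8 this depends on the library size used. With DESeq2 size factors, P8 replicate 2 (3.73 RPKM) lay below P21 replicate 1 (3.85). The mean fell from 14.6 ± 6.78 RPKM at P0 to 1.51 ± 1.64 at P21 (SD, n = 3 each), 7.13-fold between the early pair and the late pair of time points. The slope was -0.15 ± 0.03 (SE), adjusted p = 0.00115 by edgeR. The P21 replicates were far apart, with counts of 138, 6 and 98.

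**Figure D2:**
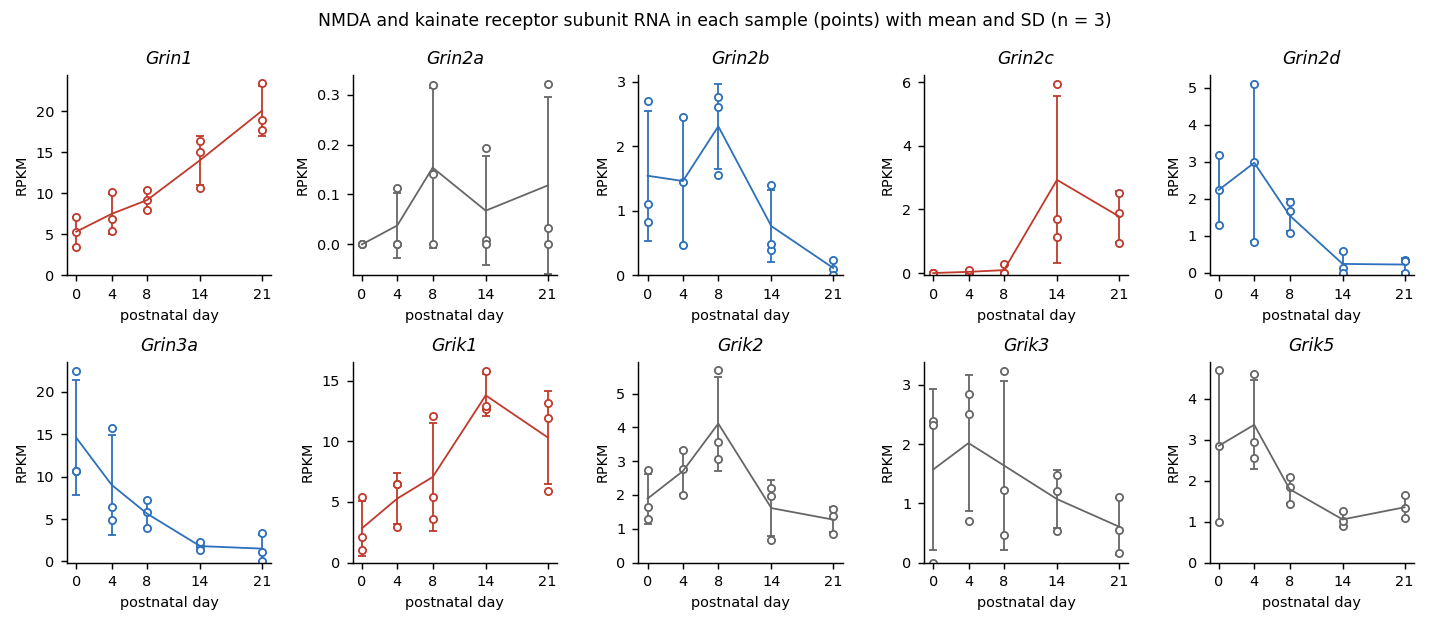
RPKM (vertical axis, a separate linear scale for each gene) against postnatal day for the 10 members. Open points are the 15 samples, lines join the means and bars are SDs (n = 3), in red for members that rose, blue for those that fell and grey for those not called. Grin1 has a higher mean at each later time point, Grin2c is at or below 0.272 RPKM up to P8, and Grin2d and Grin3a drop to low values by P14.

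Set against each other within each sample, the NMDA receptor genes differed in composition between early and late samples. The sum over the 6 members was 23.7 ± 9.39 RPKM at P0 and 21.03 ± 6.42 at P4, then 18.9 ± 2.87 at P8, and 19.8 ± 6.67 at P14 and 23.8 ± 3.50 at P21 (SD, n = 3 each). Of these time points, all pairs overlapped except P8 and P21. Grin2d and Grin2b together made up all GluN2 RNA at P0, where Grin2d held 45.4% to 79.4% of the RPKM and Grin2b 20.6% to 54.6%. This split depends on the exon length, 24842 bases for Grin2b and 6658 for Grin2d. In counts, P0 held 96, 301 and 121 of Grin2b and 99, 67 and 38 of Grin2d. At P4 the balance differed between replicates, with Grin2d at 77.8%, 86.3% and 23.8%. At P8 Grin2b held 40.2% to 70.9%. Grin2c then took 70.2% to 76.3% of the GluN2 sum at P14 and 73.6% to 88.0% at P21, against at most 7.002% in any sample up to P8, so the late and early samples did not overlap in this share. Late shares rest on few counts, in P21 replicate 1 on 16 of Grin2c, 8 of Grin2b and 2 of Grin2a.

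Measured against Grin1, which itself rose, the means of both kinds of partner subunit were lower at each later time point. The GluN2 sum without this division was 3.78 ± 1.29 RPKM at P0, 4.50 ± 1.76 at P4 and 4.10 ± 0.567 at P8. It was 3.99 ± 3.58 at P14 and 2.23 ± 1.04 at P21 (SD, n = 3 each), so its mean was not lower at P14 than at P0. The GluN2 sum was 76.4 ± 35.5% of the Grin1 level at P0 and 59.7 ± 7.13% at P4, then 45.3 ± 8.73% at P8, and 26.5 ± 19.8% at P14 and 11.8 ± 6.54% at P21 (SD, n = 3 each). Grin3a went from 274 ± 63.8% of Grin1 at P0, with all 3 samples at 200% or more, to 60.6 ± 9.94% at P8 and 6.97 ± 6.80% at P21. These are ratios of RNA levels per length and depend on the exon length used: with the longest transcript of each gene in place of all exons, the Grin1 level is 2.27-fold higher and the ratios to it fall, while courses over time keep their shape.

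Among the kainate receptor genes, Grik1, on chromosome 16 (chr16:87895900-88290265, minus strand, GRCm38, ENSMUSG00000022935), encodes the GluK1 subunit and rose. Its level was 5.36, 2.09 and 1.01 RPKM at P0, 2.89, 6.47 and 6.47 at P4, 5.43, 12.1 and 3.62 at P8, 12.7, 12.9 and 15.8 at P14 and 5.94, 13.1 and 11.9 at P21. The P14 samples lay above all other samples except P21 replicate 2 at 13.1 RPKM, which fell among them. P21 replicate 1 (5.94) lay below 2 of the P4 samples, so the early and late groups overlapped by this 1 library. With totals scaled by TMM the groups did not overlap. P21 replicate 1 was then at 6.75 RPKM, and the highest early sample, P4 replicate 2, at 6.55. The mean of P14 and P21 was 2.98-fold that of P0 and P4, and the slope was 0.11 ± 0.03 (SE), adjusted p = 0.00531 by edgeR. Within each sample, Grik1 held 13.5% to 45.8% of the summed RPKM of the 4 kainate receptor members at P0. It held 37.6% to 61.0% at P8 and 63.7% to 82.8% at P21. This sum leaves out Grik4, whose mean was 4.22 RPKM at P0 and 4.58 at P21. The share of Grik1 in all kainate receptor RNA was therefore lower.

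Grik2, on chromosome 10 (chr10:49094833-49788766, minus strand, GRCm38, ENSMUSG00000056073), encodes GluK2, and its highest mean was at P8. The level was 1.64, 2.73 and 1.30 RPKM at P0, 3.33, 2.01 and 2.78 at P4, 5.69, 3.07 and 3.57 at P8, 0.662, 2.20 and 1.97 at P14 and 1.57, 0.856 and 1.38 at P21. The P8 samples overlapped those of P4, and 2 of them lay above every sample of the other time points. Neither the trend (slope -0.03 ± 0.03 SE, adjusted p = 0.446 by edgeR) nor the factor (adjusted p = 0.143 by edgeR) passed the threshold.

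Grik3, on chromosome 4 (chr4:125490700-125714173, plus strand, GRCm38, ENSMUSG00000001985), encodes GluK3, and its samples overlapped between all time points. The level was 0, 2.38 and 2.33 RPKM at P0, 0.703, 2.51 and 2.84 at P4, 1.23, 3.23 and 0.459 at P8, 1.203, 0.529 and 1.48 at P14 and 0.163, 0.542 and 1.11 at P21. The P8 samples alone ran from 0.459 to 3.23 RPKM, and P0 replicate 1 had no count while the other two had 96 and 92. The slope was -0.06 ± 0.05 (SE), adjusted p = 0.449 by edgeR.

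Grik5, on chromosome 7 (chr7:25009849-25072346, minus strand, GRCm38, ENSMUSG00000003378), encodes the high-affinity subunit GluK5. Its level was 4.71, 0.992 and 2.85 RPKM at P0, 2.54, 2.95 and 4.60 at P4, 2.09, 1.44 and 1.85 at P8, 0.881, 1.02 and 1.25 at P14 and 1.65, 1.32 and 1.08 at P21. Apart from P0 replicate 2 (0.992), the P0 and P4 samples lay above all P14 and P21 samples. Over the groups the mean of P0 and P4 was 2.59-fold that of P14 and P21, and the slope of -0.05 ± 0.03 (SE) had an adjusted p of 0.183 in edgeR's test. Of the 10 members, 4 (Grin1, Grin2c, Grin2d and Grin3a) had P0 and P4 levels that did not overlap those of P14 and P21, where 16% of all genes tested did so. Both counts use total counts on genes, the scale on which Grik1 overlapped by 1 library. Of these 4 members, 2 were higher late (6.39% of all genes) and 2 higher early (9.63%).

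**Figure D3:**
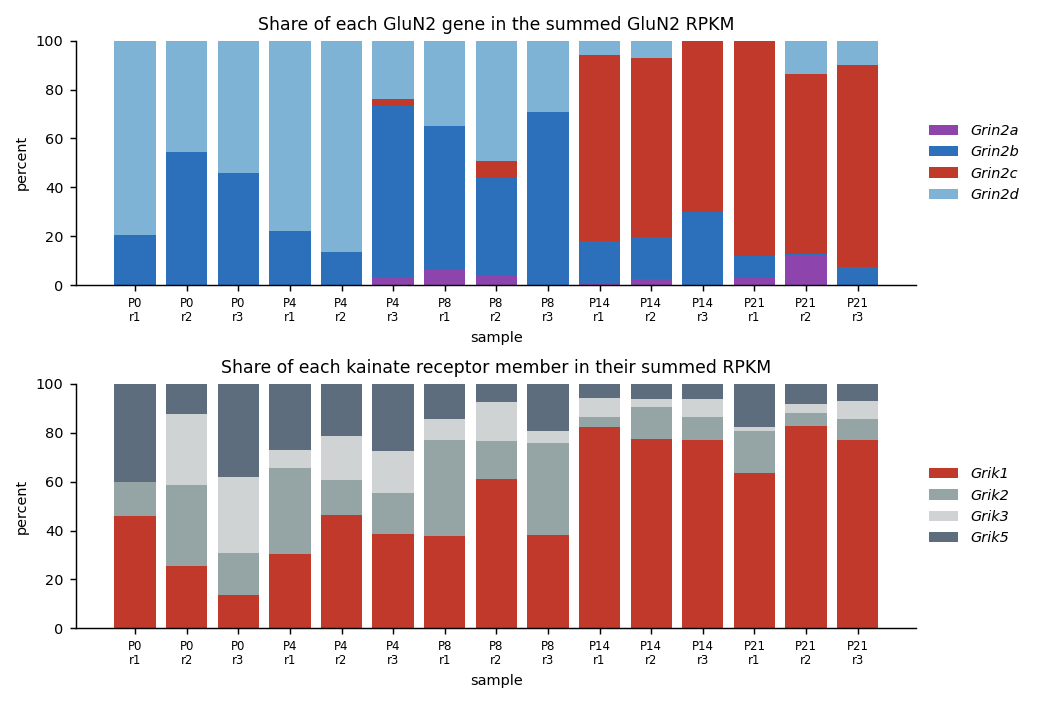
Share in percent (vertical axis, stacked to 100) of each GluN2 gene in the summed GluN2 RPKM (top) and of each kainate receptor member in their summed RPKM (bottom), 1 bar per sample. Grin2c makes up 70.2% or more of the GluN2 sum in each P14 and P21 sample and 7.002% or less before. Grik1 makes up 63.7% or more of the sum of the 4 kainate receptor members at P14 and P21, and 61.0% in P8 replicate 2. Grik4 is not part of this sum.

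The order of the members by mean RPKM turned over during the course. At P0 Grin3a (14.6) stood apart from Grin1 (5.32), which overlapped Grik5 (2.85), the next gene. The 6 genes from Grik5 to Grin2b (1.54) overlapped one another. At P4 Grin3a (9.03) and Grin1 (7.49) overlapped. At P8 the order was Grin1 (9.17), Grik1 (7.05), Grin3a (5.64) and Grik2 (4.11), with neighbors overlapping. At P14 Grin1 (14.04) and Grik1 (13.8) overlapped and stood apart from Grin2c (2.93), and at P21 Grin1 (20.1) stood apart from Grik1 (10.3) and both from Grin2c (1.78) and Grin3a (1.51), which overlapped. The order depends on the length used: with the longest transcript, Grin1 came before Grin3a at P4, Grin3a before Grin2c at P21 and Grik1 before Grik5 at P0, and other neighbors that overlapped also changed places.

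Between neighboring time points, edgeR called 0 members in any of the 4 steps, where the share of all genes called was 1.97% from P0 to P4, 1.13% from P4 to P8, 2.67% from P8 to P14 and 0.329% from P14 to P21. Members with an unadjusted p under 0.05 numbered 0, 0, 3 (Grin1, Grin2c and Grik2) and 2 (Grin1 and Grin2b) in these steps. From P8 to P14, Grin1 changed by 0.76 ± 0.29 (SE) on the log2 scale with an adjusted p of 0.214 in edgeR's test. DESeq2 and limma-voom each called 1 member, Grin2c, in that step (adjusted p = 0.0164 and 0.0150), and 0 members in the other steps. In that step DESeq2 called 4.39% of the 20928 genes with a count, and limma-voom 4.2% of 14293 genes. The DESeq2 share includes genes that its own filter left without an adjusted p, so the 2 shares have unlike bases.

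Sequence upstream of the gene start was at hand for 6 of the 10 members in RefSeq (GRCm38.p6). The 250 bases before the start are shown for 3 members that were called, Grin1 and Grin2c, which rose, and Grin2d, which fell, with GGGCGG, a GC box, in capitals where it occurs on either strand.
Grin1 (chr2:25319188-25319437, minus strand): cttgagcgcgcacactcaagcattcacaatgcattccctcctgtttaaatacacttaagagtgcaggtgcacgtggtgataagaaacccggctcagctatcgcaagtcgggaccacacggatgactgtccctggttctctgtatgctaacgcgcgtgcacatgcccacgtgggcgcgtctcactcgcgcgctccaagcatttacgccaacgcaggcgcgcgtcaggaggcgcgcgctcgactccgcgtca
Grin2c (chr11:115267244-115267493, minus strand): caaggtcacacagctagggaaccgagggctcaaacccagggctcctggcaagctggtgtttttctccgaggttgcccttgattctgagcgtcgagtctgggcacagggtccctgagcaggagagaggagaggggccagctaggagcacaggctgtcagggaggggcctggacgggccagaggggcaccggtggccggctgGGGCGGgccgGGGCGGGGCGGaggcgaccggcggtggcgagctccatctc
Grin2d (chr7:45866682-45866931, minus strand): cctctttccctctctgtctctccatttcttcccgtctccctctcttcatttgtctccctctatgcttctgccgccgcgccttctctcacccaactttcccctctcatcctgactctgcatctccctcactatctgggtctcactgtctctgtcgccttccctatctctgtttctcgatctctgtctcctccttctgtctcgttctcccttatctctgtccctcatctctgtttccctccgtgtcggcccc
Grin2c held 3 matches to GGGCGG, of which neighboring ones may share a base, and 1 to AGGTCA, while Grin1 and Grin2d held none of either and none of the 3 held TATAAA. Over 32851 promoters of this length, 32.7% held GGGCGG, 14.02% AGGTCA and 12.4% TATAAA. These windows held 27 CpG dinucleotides in Grin1, 15 in Grin2c and 9 in Grin2d, against a median of 6. The start used by RefSeq for Grin2d lies inside the gene span given by GENCODE.

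Markers of other cells moved along with some members, and their part in the results was not tested. Of 7 granule neuron markers, 3 rose (Gabra6, Slc17a7 and Etv1), and each of the 7 had a count in some sample. The others were not called, Fat2 (slope 0.07), Cbln1 (0.02), Neurod1 (-0.01) and Zic1 (-0.05). The summed level of the 7 was 362 to 582 CPM at P0, 372 to 715 at P4, 645 to 1123 at P8, 621 to 1460 at P14 and 389 to 725 at P21. Gabra6, a GABA receptor subunit typical of granule neurons, had at most 8.32 CPM in samples up to P8, then 65.7, 160 and 82.5 CPM at P14 and 74.8, 44.1 and 71.6 at P21. Grin2c and Gabra6 were both highest in P14 replicate 2, Grin2c with 31.4 CPM and Gabra6 with 160 CPM, and Slc17a7, a glutamate transporter of granule neuron vesicles, had 36.8 CPM there but was highest in P21 replicate 1 (39.7 CPM), where Grin2c had its lowest late value (5.34 CPM). Among the P14 samples, replicate 2 also had the highest summed markers of molecular layer interneurons (166 CPM) and microglia (25.3 CPM), and the lowest of PCs (30749 CPM). Summed markers of Bergmann glia and astrocytes and of vessels were highest in other P14 samples.

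The markers of granule cell precursors and cycling cells had a lower mean sum at each later time point, the direction in which Grin2b, Grin2d and Grin3a moved. The summed level was 255 to 291 CPM at P0, 88.1 to 210 at P4, 38.2 to 52.6 at P8, 1.10 to 4.98 at P14 and 0.212 to 3.04 at P21, and 2 of the 4 genes, Mki67 and Top2a, fell. Atoh1, the defining gene of granule cell precursors, had no count at any time point. Among the P4 samples, replicate 3 was highest in this list as well as in Grin2b and Grin3a, but lowest in Grin2d. Bergmann glia and astrocyte markers summed to 3795 to 5500 CPM at P0, 7952 to 9512 at P8 and 2771 to 4276 at P21. Of these 8 markers, 3 rose (Slc1a3, Hopx and Hepacam) and 2 fell (Aldh1l1 and Fabp7), and each had a count in some sample. Fabp7 alone had 2032 to 3189 CPM at P0, 4334 to 4893 at P8 and 125 to 253 at P21. It was a large part of the sum at P0 and P8 but not at P21, so the sum does not give the course of the other markers. Molecular layer interneuron markers ranged from 105 to 246 CPM over all samples, with 1 of 4 tested falling, markers of Golgi and glycinergic neurons from 0 to 41.8 CPM with none called, and oligodendrocyte markers from 18.3 to 855 CPM with 5 of 7 rising. Microglia markers lay between 0 and 25.5 CPM with none called, and vessel markers between 16.0 and 121 CPM with 1 of 3 falling. The summed PC markers overlapped those of Bergmann glia and astrocytes at P0 and were above every other list from P4 on.

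**Figure D4:**
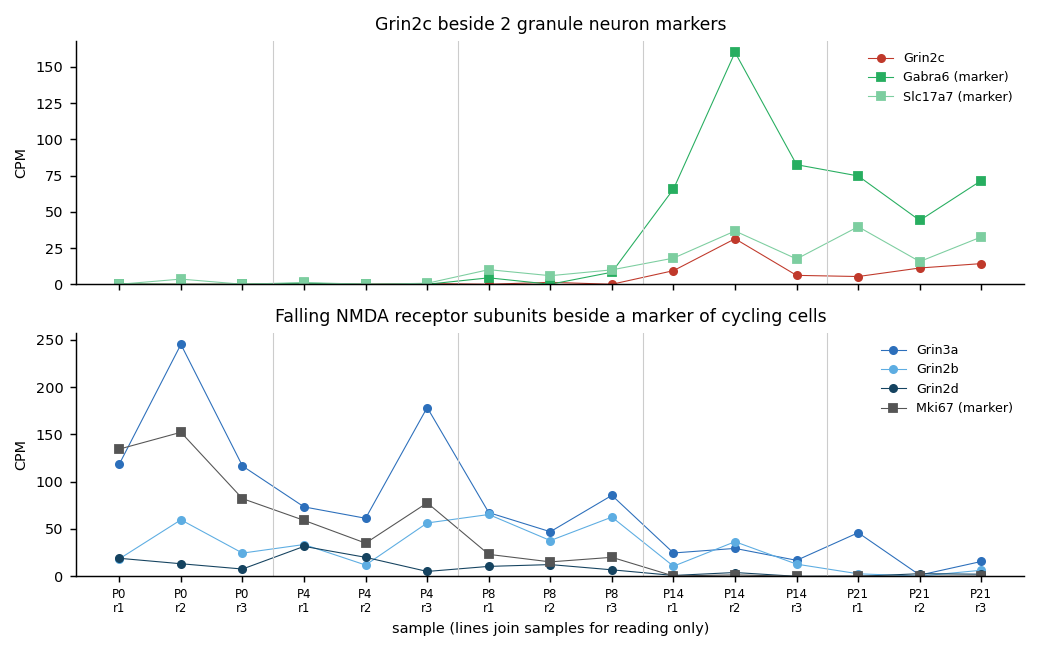
CPM (vertical axis, linear) in each of the 15 samples for Grin2c with the granule neuron markers Gabra6 and Slc17a7 (top) and for Grin3a, Grin2b and Grin2d with Mki67, a gene of dividing cells (bottom). Lines join samples for reading only. Gabra6 and Slc17a7 are among the 3 of 7 granule neuron markers that rose. Grin2c and Gabra6 are both highest in P14 replicate 2 and low up to P8, and Mki67 is at or below 1.53 CPM from P14 on.

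Of the other receptor genes of these families, Grik4, the second high-affinity kainate receptor subunit, ran 4.76, 4.19 and 3.73 RPKM at P0, 1.54, 1.76 and 1.59 at P4, 0.747, 1.71 and 2.82 at P8, 3.25, 3.06 and 4.82 at P14 and 4.82, 4.74 and 4.19 at P21. Its P4 samples lay below all those of P0, P14 and P21, and neither its trend (slope 0.04 ± 0.02 SE, adjusted p = 0.218) nor the factor (adjusted p = 0.0678) passed in edgeR. Grin3b, the other GluN3 gene, had 9 counts in 2 samples and did not pass the filter.

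Genes that act with these receptors were described from lists and with the same fits. Among the 4 AMPA receptor genes, 3 rose (Gria1, Gria2 and Gria3) and 0 fell, where the background is 12.1% and 14.1%. Gria3, an AMPA receptor subunit, rose from 4.31 ± 0.857 to 35.1 ± 7.11 RPKM (slope 0.15 ± 0.01 SE, adjusted p = 6.92e-08 by edgeR), and Gria2, the subunit that blocks calcium entry, from 43.4 ± 6.47 to 54.8 ± 4.16 (slope 0.03, adjusted p = 0.00635 by edgeR). The 4 AMPA receptor genes summed to 123 ± 13.6 RPKM at P0 and 178 ± 9.34 at P21, so their RNA was several-fold that of the NMDA and kainate receptor members at each time point.

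**Figure D5:**
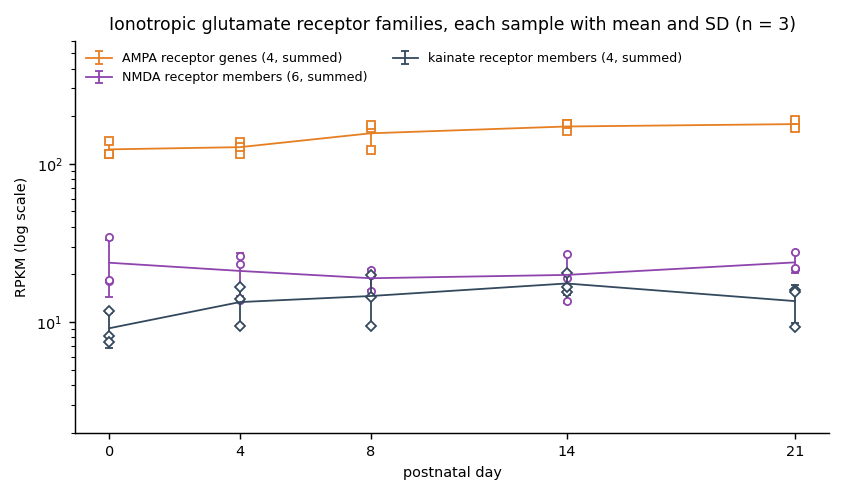
Summed RPKM (vertical axis, log scale) against postnatal day for the 4 AMPA receptor genes, the 6 NMDA receptor members and the 4 kainate receptor members. Points are samples, lines join means and bars are SDs (n = 3). The NMDA receptor sum stays between 13.6 and 34.5 and the kainate receptor sum between 7.49 and 20.5 RPKM in all samples, below the AMPA receptor sum throughout.

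Of 7 kainate receptor partners, 5 were tested, 0 rose and 1 fell, a share near the 14.1% of all genes. This was Neto1, an auxiliary subunit of kainate receptors that also binds NMDA receptors, with 0.543 to 4.09 RPKM at P0, 1.10 to 4.94 at P4, at most 0.752 in any later sample, and a slope of -0.27 ± 0.08 (SE), adjusted p = 0.0149 by edgeR. Of 20 scaffolds and kinases of the NMDA receptor, 5 rose, 4 fell and 11 were not called (12.1% and 14.1% of all genes rose and fell), with a median slope of 0.01. The rising ones included Camk2a, a kinase that binds GluN2 tails, from 3.51 ± 2.11 to 23.6 ± 2.73 RPKM between P0 and P21 (slope 0.14 ± 0.02 SE, adjusted p = 2.05e-05 by edgeR), and the scaffold genes Dlgap1 (slope 0.12, adjusted p = 6.77e-06) and Lin7a (slope 0.12, adjusted p = 0.00964). Ptpn5, a phosphatase that acts on GluN2B, fell from 21.7 ± 9.69 to 0.489 ± 0.131 RPKM (slope -0.24 ± 0.03 SE, adjusted p = 5.70e-06 by edgeR), and Dlgap3 (slope -0.13) and the receptor tyrosine kinase gene Ephb2 (slope -0.08) fell as well, with adjusted p-values of 0.0211 and 0.00162.

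Of 12 genes that handle the co-agonists glycine and D-serine, 2 rose, 2 fell and 8 were not called, shares near the 12.1% and 14.1% of all genes. Dao, the enzyme that degrades D-serine, had no count at P0 and P4, reached 7.60 ± 2.81 RPKM at P21 (SD, n = 3) and had a slope of 0.48 ± 0.06 (SE), adjusted p = 1.05e-05 by edgeR. Slc7a10, a transporter of D-serine and glycine found in astrocytes, had at most 0.107 RPKM at P0 and 26.1 ± 10.6 at P21 (slope 0.34 ± 0.08 SE, adjusted p = 0.00239 by edgeR). Slc1a4, a neutral amino acid transporter, and Phgdh, an enzyme of serine synthesis in glia, fell, with slopes of -0.10 each and adjusted p-values of 0.0113 and 8.13e-04 in edgeR's test. Several of these genes are known from glia, whose markers moved in both directions as given above, and the part of glia in these values was not tested.

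Over the 15 samples, the genes whose log2 CPM ran most like Grin2c, the member with the largest rising slope, were Gabarapl1 (Pearson r = 0.940), Zdhhc14 (r = 0.939) and Tecr (r = 0.937), among 9732 genes with a mean of at least 10 CPM. For Grin2d, with the largest falling slope among called members, they were Mgat5b (r = 0.914), Smim18 (r = 0.911) and Epha10 (r = 0.903). The 15 points share postnatal day and library, and these values are descriptions.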

How the data were processed

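RNA of laser-captured PCs was amplified with the SMARTer Ultra Low kit, which does not mark the strand. The authors trimmed the reads with cutadapt 1.2.1, aligned them to GRCm38.p1 (mm10) with GSNAP, kept unique alignments and counted them per gene with HTSeq (intersection-strict). These counts were deposited as whole numbers, 1 file per sample, neither normalized nor pooled. The annotation release used for counting is not given in the sources used here. HTSeq's tallies of reads outside genes (16.7% to 29.8% beside the counts on genes) or ambiguous between genes (1.16% to 1.57%) were left out of library sizes.

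From the counts, trends with postnatal day, the time point as a factor and the 4 steps between neighboring time points were tested with edgeR 4.0.16 (quasi-likelihood, TMM, filterByExpr by time point) in R 4.3.3, at an adjusted p of 0.05. The standard error of a slope is the slope divided by the root of its F statistic. RPKM used summed exon lengths from GENCODE M21 and total counts on genes. DESeq2 1.42.0 and limma 3.58.1 gave alternatives, and 1 gene of the lists (Klhl17) was not found in the files. Tests were first tested on simulated counts. The biological coefficient of variation, the spread between samples, was 0.705. Counts of replicates differed by far more than sampling noise, so each sample counted once. Members, lists and tests were chosen with earlier results of these data known. A few items that the rules select are not reported here. Named are all members, Grin3b, Grik4, up to 3 partner genes per list and direction with the largest slope among those called (CPM at the highest time point 10 or more), list markers, and the 3 genes most like the steepest called member in each direction.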

Additional observations from a re-analysis of the deposited data

How the results depend on the processing

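Over the 22 alternatives to the trend (other tools, size factors, no filter, log2 of day plus 1, no P0 samples, the replicate block and each of 15 samples left out), Grin1, Grin2c and Grin3a kept their direction and their call. With log2(day + 1), 1 member fell, Grin3a, in place of 3. Leaving out each sample in turn, 3 members rose each time, 2 to 3 fell, 2 to 5 were called by the time point as a factor (2 are Grin1 and Grin2c), and 0 were called in each step. From P8 to P14, DESeq2 and limma-voom each called 1 member. Grin2d lost its call with log2(day + 1) (adjusted p = 0.133). Directions turned, far from any threshold, for Grik2 with log2(day + 1) (slope 0.0087) and for Grik3 with limma-voom (slope 0.0067). The cause was not tested. RPKM values changed by 0.892-fold to 1.18-fold with other library sizes and up to 2.27-fold with the longest transcript as length.

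Samples with the same replicate number did not deviate together (mean r = -0.0033 over 30 pairs, 0 of them over 0.1, and 7 of 15 samples correlated best with their own number), so the numbers were not taken as pairs. With the replicate block, 3 members rose, 2 fell (Grin2b: slope -0.15, adjusted p = 0.0581), 4 were called by the factor and 0 in any step. Low counts limit Grin2a, with at most 32 counts in a sample, and the levels of Grin2c and Grin2d where samples had no count.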
